A study of Homo sapiens with 8 samples.

Results

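The serpins are a superfamily of protease inhibitors, and they were taken here as every protein-coding gene whose symbol is SERPIN followed by a clade letter from A to I and a number. This rule gave 34 of the 60558 genes in the files, of which 19957 were protein-coding. Of these 34 serpins, 33 are described here. Among them, 12 reached 1 FPKM or more in 2 or more libraries and were tested, 2 were above 0 but below that minimum, and 19 were listed at 0 in all 8 libraries. FPKM counts sequenced fragments per kilobase of a transcript and relative to all fragments mapped, so that levels of different genes can be set side by side.

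The cells were 2D human intestinal epithelial cells (hIECs) differentiated in culture from H9, an established line of human embryonic stem cells, and all groups descend from this line. In all, 4 conditions with 2 libraries each were sequenced. Normal hIECs received neither treatment, and normal hIECs with PM10 received particulate matter of the PM10 size class. Inflamed hIECs received the cytokines IFNγ and TNFα together, and inflamed hIECs with PM10 received both cytokines and PM10. The labels give a treatment of 10 days for every group. Per the study, the cytokines were given for 10 days and PM10 only for the last part of that time. The labels do not say whether the 2 libraries of a group came from separate cultures, so the p-values measure the spread between these libraries, which may be technical.

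Most serpins are suicide inhibitors. The protease cleaves an exposed loop of the serpin, the reactive centre loop, and the serpin then folds this loop into its own sheet and drags the trapped protease along, so that each inhibitor molecule is used up with the protease it stops. The letter in a serpin's name is its clade. Clade A holds plasma antiproteases and hormone carriers made mostly in liver, clade B holds inhibitors that stay inside the cell, and clades C to G hold regulators of coagulation, fibrinolysis, angiogenesis and complement. SERPINH1 and SERPINF1 keep the serpin fold but do not act as protease inhibitors. In the gut wall, serpins made by epithelial and stromal cells limit proteases released in inflammation.

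The library values were checked before the serpins were compared. The cytokine-induced chemokine CXCL10 rose with cytokines by 9.03 without PM10 and 9.13 with PM10 on the log2(FPKM + 1) scale, and the aryl hydrocarbon receptor target CYP1B1 rose with PM10 from 6.43 to 64.3 FPKM in normal hIECs and from 36.7 to 254 FPKM in inflamed hIECs. CYP1B1 also rose by 2.35 with cytokines alone. Among 11 genes listed to check the treatments, 9 were tested, while CYP1A1 and AHRR stayed below the minimum. With PM10, 5 of the 9 rose in normal hIECs (limma, adjusted p under 0.05, 5.51% of all genes). In inflamed hIECs 3 rose (6.22%), and none fell in either. Of 12 intestinal epithelial markers, 9 were listed at 0 in all libraries, among them CDX2, VIL1, MUC2 and SI, and only LGR5 reached the minimum. All 10 mesenchymal markers reached it, with a summed level of 4208 to 4248 FPKM in normal hIECs, 3726 to 3735 with PM10, 4428 to 4475 in inflamed hIECs and 3750 to 3783 in inflamed hIECs with PM10. Genes of mitochondrial DNA took 15.5% to 24.2% of the FPKM sum of a library. Because these are bulk samples, fewer cells of a type and less RNA per cell cannot be told apart for any gene below.

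Among the serpins described here, the repertoire of these cells was narrow and was dominated by a few secreted or secretory-pathway members. The summed level of the 33 serpins was 834 and 846 FPKM in the 2 normal libraries, 735 and 724 with PM10, 895 and 868 in the inflamed libraries and 940.5 and 935 in the inflamed libraries with PM10. The groups did not overlap in this sum. In normal hIECs, the collagen chaperone SERPINH1 made up 42.8% and 44.5% of it, the highest shares of any member there. In inflamed hIECs with PM10 its share was 22.4% and 23.6%, while SERPINE2 made up 54.4% and 54.6%, up from 22.6% and 18.8% in normal hIECs. The share of SERPINF1 ran from 8.82% and 9.07% in normal hIECs to 2.96% and 2.81% in inflamed hIECs with PM10. The plot of summed levels shows this exchange between members.

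**Figure D1:**
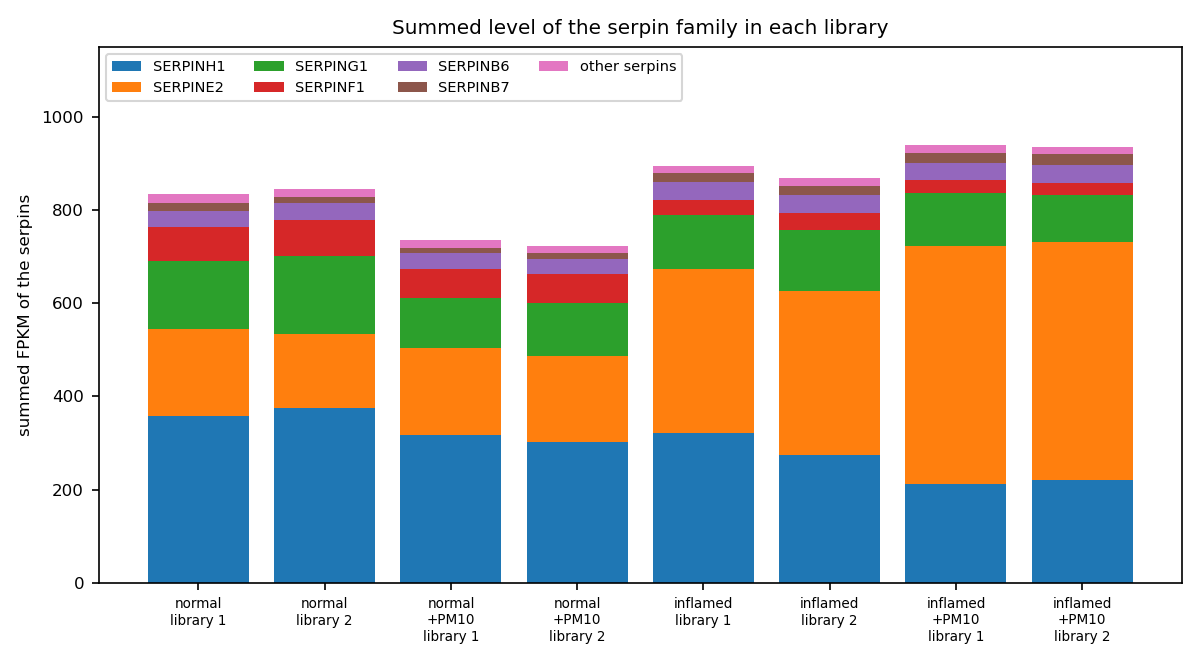
Summed FPKM of the 33 serpins described (vertical axis) in each of the 8 libraries (bars), split into the members with the highest levels and all other serpins. The total runs from 724 FPKM in a normal library with PM10 to 940.5 FPKM in an inflamed library with PM10, and the SERPINE2 segment is largest, and the SERPINH1 segment smallest, in the inflamed libraries with PM10.

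Most of the serpins described lie in chromosomal clusters, whether they were detected or not. On chromosome 14 (GRCh38, positions 94280460 to 94624055, GENCODE 44), 9 clade A genes lie side by side, among them SERPINA1 (alpha-1-antitrypsin, the main inhibitor of neutrophil elastase), SERPINA6 (the corticosteroid carrier) and SERPINA5 (the protein C inhibitor). Only SERPINA3 of this cluster was tested. SERPINA1 was at 0.223 FPKM in the first normal library and at 0 in the other 7, and the remaining 7 members were listed at 0 throughout. Of 10 hepatocyte markers, 9 were also listed at 0 in every library, ALB among them. On chromosome 18 (63476958 to 64019779), 10 clade B genes lie together, of which SERPINB7, SERPINB2 and SERPINB8 were tested, SERPINB4 stayed below 0.3 FPKM and 6 were listed at 0, among them SERPINB5 (maspin) and SERPINB3 (a squamous cell carcinoma antigen). In contrast, all 3 clade B genes of chromosome 6 (2832332 to 2972165), SERPINB1, SERPINB9 and SERPINB6, were tested. Outside these clusters, the thrombin inhibitors SERPINC1 (antithrombin) and SERPIND1 (heparin cofactor II) and the plasmin inhibitor SERPINF2 were listed at 0. Printed values above 0 started at 0.164 to 0.228 FPKM, depending on the library, but FPKM is set per length, so this is no bound for a gene listed at 0.

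The tested serpins divided in opposite directions under the cytokines. In inflamed against normal hIECs, SERPINE2, SERPINB1, SERPINB7 and SERPINB8 rose and 7 others fell, so that 11 of 12 were called at an adjusted p-value under 0.05, in a comparison in which 56.2% of all 14206 genes tested were called, 25.9% higher and 30.3% lower. With PM10 present in both groups, the same 4 rose and 6 fell, 10 of 12, against 65.4% of all genes, 25.8% higher and 39.6% lower. SERPINA3 reached the minimum for a test only through the normal libraries, in which it was highest, so its calls carry no weight, and without it 10 of 11 and 9 of 11 were called. SERPINB6 was called in neither comparison and SERPING1 in the first only. The median difference of the 12 serpins on the log2(FPKM + 1) scale was -0.24 without PM10 and -0.14 with PM10, against -0.03 and -0.11 over all genes. With SERPINA3 left out, which was listed at 0 in all libraries with cytokines, the medians of the other serpins were -0.19 and -0.05. The median of all genes in the second comparison moved from -0.11 to -0.06 under median centring and to -0.02 under quantile normalization.

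Fewer of the 12 tested serpins were called with PM10, and in normal hIECs each of those called fell. In normal hIECs, SERPING1, SERPINA3, SERPINF1 and SERPINB7 fell and none rose, 4 of 12, or 3 of 11 without SERPINA3, against 9.23% of all genes, 5.51% higher and 3.72% lower. In inflamed hIECs, SERPINE2, SERPINI1 and SERPINB8 rose and SERPINF1, SERPINH1 and SERPINB9 fell, 6 of 12 against 15.2% of all genes, 6.22% higher and 9.02% lower. The median serpin difference was -0.20 in normal hIECs, against 0.06 over all genes, and -0.02 in inflamed hIECs, against -0.01. With SERPINA3 left out, the medians of the other serpins were -0.15 and -0.03. The median of all genes in normal hIECs moved from 0.06 to 0.00449 under median centring and to 0.02 under quantile normalization. The effect of PM10 itself differed between inflamed and normal hIECs for 3 serpins by the interaction term, against 6.6% of all genes (2.11% higher and 4.48% lower), with a higher PM10 effect in inflamed hIECs for SERPINB7 and SERPINI1 and a lower one for SERPINB9. Each library entered more than 1 of these comparisons, so they are not independent of each other. When limma was fitted to only the 2 groups compared, the count in normal hIECs was 0 rather than 4, with 6 serpins at an unadjusted p under 0.05. The same count of 0 came without the first or the second normal library with PM10, and the interaction count was 0 without any single library other than the normal ones, with 5 to 7 serpins at an unadjusted p under 0.05 in these limma fits.

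**Figure D2:**
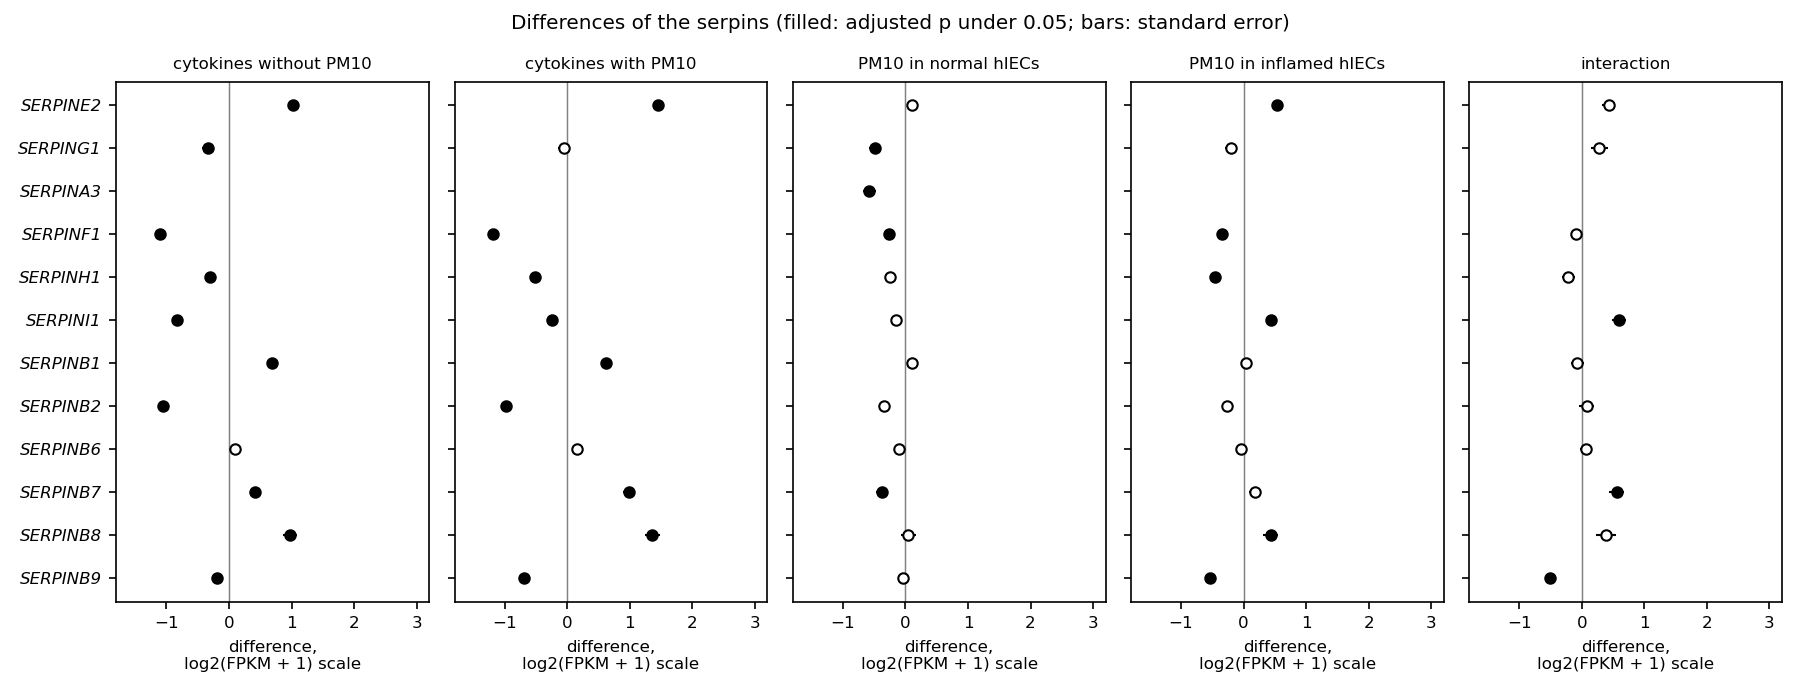
Difference of each tested serpin (rows) in each of the 5 comparisons (panels), in log2(FPKM + 1) units, with the standard error from limma as a bar. Filled points passed an adjusted p-value of 0.05 and open points did not. SERPINE2 lies at 1.02 and 1.45 in the cytokine panels, at 0.11 with PM10 in normal hIECs and at 0.54 with PM10 in inflamed hIECs. SERPINA3 is drawn only where neither group was listed at 0.

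The promoters of the tested serpins were searched for 4 motifs in the 250 bases before the RefSeq start (GRCh38.p14, both strands). These were GAS (TTCNNNGAA, the element of interferon gamma responses), ISRE (GAAA, 2 bases of any kind and GAAA again, the element of type I interferon responses), the core of the xenobiotic response element (GCGTG) and the kappaB consensus. GAS is a palindrome, so both strands give the same site. Of the 12 tested serpins, 10 had an entry, and SERPINF1 and SERPING1 had none. GAS was found in 3 of the 10, SERPINB1, SERPINB7 and SERPINB8, against 6.57% of 35116 promoters. These 3 rose with cytokines, while SERPINE2, which rose too, held none of the 4 motifs. A link between GAS and the cytokine differences was not tested. The xenobiotic core was found in SERPINB1, SERPINB6 and SERPINB9 (32.2% of promoters), the kappaB consensus in SERPINB7 and SERPINH1 (5.21%) and ISRE in none (3.02%). A match of this kind is a description of letters, not a binding site.

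SERPINE2, protease nexin-1, inhibits thrombin and the plasminogen activators at the cell surface and binds heparan sulfate. It was the highest of the serpins described in the inflamed groups, at 188 and 159 FPKM in the normal libraries, 187 and 185 with PM10, 351 and 352 in the inflamed libraries and 512 and 511 in the inflamed libraries with PM10. Values with and without PM10 overlapped in normal hIECs and stood apart in inflamed hIECs. The cytokine difference was 1.02 ± 0.0745 without PM10 (adjusted p = 2.67e-05) and 1.45 ± 0.0745 with PM10 (adjusted p = 3.38e-06), and PM10 raised it by 0.54 ± 0.0745 in inflamed hIECs (adjusted p = 0.00473). In normal hIECs the PM10 difference was 0.11 ± 0.0745 (adjusted p = 0.377), and the interaction of 0.43 ± 0.105 missed the threshold (adjusted p = 0.0559). The 3 called values stayed past the threshold under every alternative run.

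The SERPINE2 promoter is printed because, among the members described, only SERPINE2 had a promoter entry and rose by at least 1 in both cytokine comparisons. Its window is chr2:224031479-224031728 on the minus strand, inside the gene as GENCODE 44 draws it (223975045 to 224039318), and it held none of the 4 motifs, which says only that these letters are not in this window.
SERPINE2: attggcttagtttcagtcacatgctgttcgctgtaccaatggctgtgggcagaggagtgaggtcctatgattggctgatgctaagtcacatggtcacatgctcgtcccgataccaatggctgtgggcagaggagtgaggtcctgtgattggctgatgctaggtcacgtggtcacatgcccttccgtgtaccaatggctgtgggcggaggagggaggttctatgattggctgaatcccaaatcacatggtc

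The proteases and the receptor of the plasminogen system on which SERPINE2 acts did not all move with it. Tissue-type plasminogen activator, PLAT, had group means of 43.7 ± 2.7 FPKM (SD, n = 2) in normal hIECs, 44.2 ± 1 with PM10, 24.4 ± 1.1 with cytokines and 20.8 ± 0.29 with both treatments, and it fell with cytokines by 0.82 (adjusted p = 2.8e-05) and, with PM10 present, by 1.05 (adjusted p = 5.6e-06). PLAT was lower, and SERPINE2 higher, in both groups with cytokines. Urokinase, PLAU, was at 7.10 and 6.53 FPKM without cytokines, 8.09 with cytokines alone and 13.8 with both treatments, and its interaction of 0.81 (adjusted p = 0.0053) passed the threshold. The urokinase receptor PLAUR was at 19.3, 16.5, 48.7 and 58.7 FPKM in the same order of groups, with cytokine differences of 1.29 and 1.77 and an interaction of 0.48 (adjusted p = 0.014). Unlike those of the serpins, the calls of PLAT, PLAU and PLAUR were not checked under the alternatives. PLG, which encodes the plasminogen that these enzymes act on, was listed at 0 in all libraries, as was the thrombin gene F2.

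**Figure D3:**
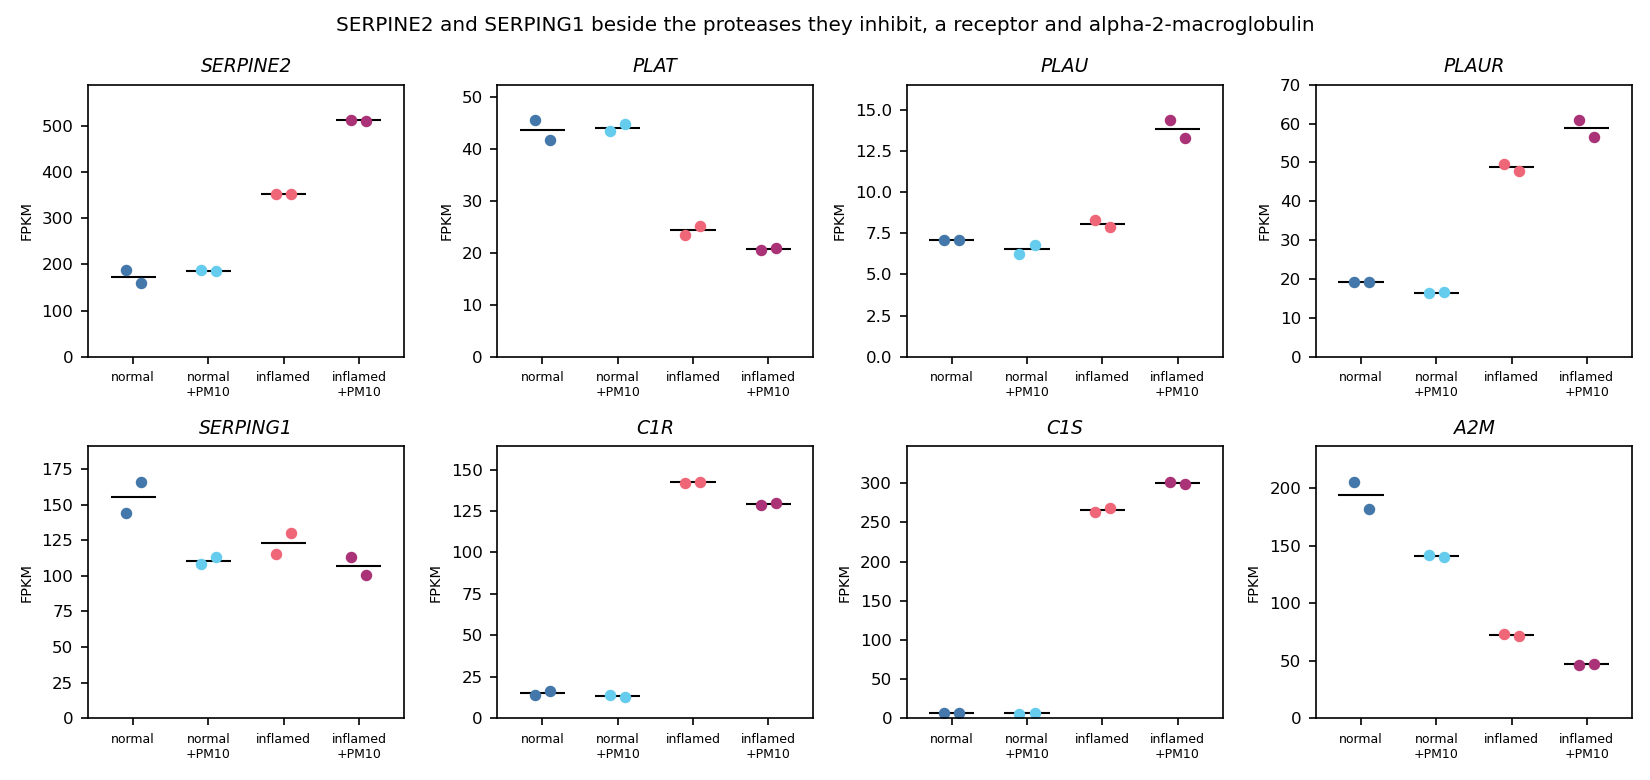
FPKM (vertical axes, each starting at 0) of SERPINE2 with PLAT, PLAU and PLAUR (upper row) and of SERPING1 with C1R, C1S and the broad inhibitor A2M (lower row) in the 4 groups. Points are the 2 libraries of a group and lines are group means. SERPINE2 and PLAUR are highest and PLAT lowest in inflamed hIECs with PM10, and C1R and C1S are above 125 FPKM in each library with cytokines while SERPING1 stays between 100.5 and 166 FPKM in all libraries.

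SERPING1 (chromosome 11, 57597387 to 57619171), the C1 inhibitor, is the main inhibitor of C1r and C1s, the proteases that start the classical complement pathway, and it also inhibits plasma kallikrein. Its level was 144 and 166 FPKM in the normal libraries, 108 and 113 with PM10, 116 and 130.4 in the inflamed libraries and 113 and 100.5 in the inflamed libraries with PM10. The normal libraries were the highest, the inflamed libraries came next, and the 2 groups with PM10 overlapped. It fell by 0.33 ± 0.0923 with cytokines alone (adjusted p = 0.0174) and by 0.48 ± 0.0923 with PM10 in normal hIECs (adjusted p = 0.0243), and it was not called with cytokines in the presence of PM10 (-0.05, adjusted p = 0.642) or with PM10 in inflamed hIECs (-0.20, adjusted p = 0.181). The proteases it controls rose with cytokines. C1S was at 6.62 and 6.20 FPKM without cytokines and at 266 and 301 FPKM with them (differences of 5.13 and 5.39), and C1R went from 15.5 and 13.5 FPKM to 142 and 129 FPKM (3.12 and 3.17). Both calls of SERPING1 rest on few libraries: without the second normal library the cytokine value was -0.23 (adjusted p = 0.0919) and the PM10 value -0.38 (adjusted p = 0.0875), without the first inflamed library the cytokine value was -0.25 (adjusted p = 0.11), and without the first or second normal library with PM10 the PM10 value was -0.45 (adjusted p = 0.132) or -0.51 (adjusted p = 0.0973).

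SERPINA3 (chromosome 14, 94612384 to 94624055), alpha-1-antichymotrypsin, inhibits cathepsin G and chymases and is known as an acute-phase protein of liver. It was detected only without cytokines, at 1.85 and 1.63 FPKM in the normal libraries and 0.750 and 0.929 FPKM with PM10, and it was listed at 0 in all 4 libraries with cytokines. Both normal libraries lay above both normal libraries with PM10. Because it passed the minimum only through the normal libraries, a difference from them was built into its selection, and these levels are given as a description with no test. Of its exonic bases, 31.7% lie over an overlapping gene that was itself listed at 0.

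Clade B serpins act in the cytosol and nucleus, where they protect a cell from its own or incoming proteases, and those tested split into 3 that rose with cytokines, 2 that fell and 1 that was not called. SERPINB1 (chromosome 6, 2832332 to 2841959), the inhibitor of neutrophil elastase, cathepsin G and proteinase 3, was at 2.34 and 2.32 FPKM in the normal libraries, 2.66 and 2.51 with PM10, 4.47 and 4.27 in the inflamed libraries and 4.77 and 4.25 in the inflamed libraries with PM10. The libraries with cytokines lay above all of those without. Its cytokine differences were 0.69 ± 0.0754 (adjusted p = 0.000202) and 0.62 ± 0.0754 (adjusted p = 0.000264), and no PM10 difference was called. The proteases it targets in neutrophils, ELANE, CTSG and PRTN3, were listed at 0 in all libraries, as were 5 of 7 leukocyte markers. The 1 leukocyte marker tested, FCER1G, rose with cytokines like SERPINB1, from 1.09 to 3.63 FPKM without PM10 (1.14, adjusted p = 5.36e-05) and from 0.914 to 3.33 FPKM with PM10 (1.18, adjusted p = 3.32e-05). PTPRC, below the minimum, went the other way. It was at 0.524 and 0.345 FPKM in the normal libraries, 0.310 and 0.253 with PM10 and 0 in every library with cytokines. The part of leukocyte RNA in the SERPINB1 result was not tested.

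The promoters of SERPINB1, SERPINB7 and SERPINB8 are printed because each holds a GAS match, and they were chosen after the matches were seen. Capitals mark GAS in each, at 208 to 200 bases before the start in SERPINB1, 46 to 38 in SERPINB7 and 231 to 223 in SERPINB8, and also the xenobiotic core in reverse (145 to 141) in SERPINB1 and the kappaB consensus in reverse (207 to 198) in SERPINB7. The windows are chr6:2841864-2842113 on the minus strand for SERPINB1, chr18:63752807-63753056 on the plus strand for SERPINB7 and chr18:63969831-63970080 on the plus strand for SERPINB8. Each window runs past the start of its gene as GENCODE 44 draws it, and of the marked matches the GAS match of SERPINB7 lies inside the gene.
SERPINB1: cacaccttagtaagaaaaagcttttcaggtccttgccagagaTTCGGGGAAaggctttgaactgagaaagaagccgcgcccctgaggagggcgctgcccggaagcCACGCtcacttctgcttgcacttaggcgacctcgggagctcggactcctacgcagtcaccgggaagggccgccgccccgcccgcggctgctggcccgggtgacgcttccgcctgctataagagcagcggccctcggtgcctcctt
SERPINB7: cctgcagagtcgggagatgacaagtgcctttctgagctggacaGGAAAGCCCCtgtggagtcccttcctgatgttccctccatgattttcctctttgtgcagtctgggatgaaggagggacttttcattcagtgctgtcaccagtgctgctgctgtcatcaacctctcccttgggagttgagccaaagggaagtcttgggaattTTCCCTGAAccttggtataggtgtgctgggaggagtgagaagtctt
SERPINB8: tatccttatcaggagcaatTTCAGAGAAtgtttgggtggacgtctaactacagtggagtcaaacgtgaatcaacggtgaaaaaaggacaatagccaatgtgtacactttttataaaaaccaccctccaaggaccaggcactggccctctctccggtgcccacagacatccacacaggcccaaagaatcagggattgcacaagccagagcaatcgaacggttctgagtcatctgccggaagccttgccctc

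SERPINB7, megsin, lies on chromosome 18 (63752935 to 63805376) and is known from kidney mesangial cells and skin. It was at 16.1 and 13.1 FPKM in the normal libraries, 10.8 and 11.1 with PM10, 20.02 and 19.6 in the inflamed libraries and 22.6 and 22.4 in the inflamed libraries with PM10, so the groups did not overlap. It rose with cytokines by 0.42 ± 0.0861 without PM10 (adjusted p = 0.00451) and by 0.98 ± 0.0861 with PM10 (adjusted p = 4.88e-05). PM10 lowered it by 0.38 ± 0.0861 in normal hIECs (adjusted p = 0.0393), the difference in inflamed hIECs was 0.18 ± 0.0861 (adjusted p = 0.201), and the interaction was 0.56 ± 0.122 (adjusted p = 0.0412). The PM10 value in normal hIECs and the interaction were both lost without any single library of the normal hIECs with PM10, the inflamed hIECs or the inflamed hIECs with PM10 (adjusted p between 0.0726 and 0.17, and between 0.111 and 0.128), with values of -0.36 to -0.40 and 0.54 to 0.57. Without the first normal library the PM10 value was -0.24 (adjusted p = 0.0277) and the interaction 0.42 (adjusted p = 0.0208), and without the second they were -0.52 (adjusted p = 0.00751) and 0.69 (adjusted p = 0.00494). The PM10 value and the interaction also missed the threshold without the filter on low values (adjusted p = 0.0575 and 0.064) and without the variance trend (adjusted p = 0.0556 and 0.057), as did the PM10 value with only the groups compared (adjusted p = 0.175). Of 6 squamous epithelial markers, 4 were listed at 0 and TP63 alone was tested. Their sum ran from 1.87 to 1.95 FPKM without treatment and from 2.54 to 2.91 FPKM under PM10 alone. Cytokines alone gave 10.6 to 12.1 FPKM, and both treatments together 9.86 to 10.7 FPKM. TP63 made up most of this sum, with a mean of 1.51 FPKM in normal and 11.1 FPKM in inflamed hIECs. KRT5, below the minimum, did not rise with it. The normal libraries held KRT5 at 0.365 and 0.446 FPKM, and the inflamed libraries at 0.309 and 0. KRT5 was listed at 0 in every library with PM10. The part of these markers in the SERPINB7 result was not tested.

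SERPINB8 (chromosome 18, 63970029 to 64019779), an inhibitor of furin-like proteases, was at 1.61 and 1.45 FPKM in the normal libraries, 1.39 and 1.86 with PM10, 3.98 and 3.99 in the inflamed libraries and 6.31 and 5.19 in the inflamed libraries with PM10. Cytokines raised it by 0.98 ± 0.115 (adjusted p = 0.000299) and 1.36 ± 0.115 (adjusted p = 4.02e-05). PM10 raised it in inflamed hIECs by 0.43 ± 0.115 (adjusted p = 0.0459), a call that was lost without any single library other than those of normal hIECs with PM10 (values of 0.31 without the first and 0.55 without the second inflamed library with PM10, adjusted p from 0.0533 to 0.218). It was also lost with a pseudocount of 0.1 (0.51, adjusted p = 0.0741) or 0.5 (0.47, adjusted p = 0.0561), without the filter on low values (adjusted p = 0.0691) and with only the groups compared (adjusted p = 0.0713). HMSD, a neighbouring gene that encodes another serpin-domain protein, and a weakly detected long non-coding RNA together share 9.07% of the exonic bases of SERPINB8. HMSD stood at 0.800 to 1.82 FPKM without cytokines and 2.12 to 3.37 FPKM with them, so reads over the shared bases may belong to either gene.

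SERPINB2 (chromosome 18, 63871692 to 63903888), plasminogen activator inhibitor type 2, inhibits urokinase and fell with cytokines. It was at 4.70 and 4.11 FPKM in the normal libraries, 3.37 and 3.17 with PM10, 1.65 and 1.56 in the inflamed libraries and 1.23 and 1.12 in the inflamed libraries with PM10, with no overlap between groups. Cytokines lowered it by 1.05 ± 0.0846 (adjusted p = 4.24e-05) and by 0.97 ± 0.0846 (adjusted p = 4.59e-05), and the PM10 values of -0.34 in normal hIECs (adjusted p = 0.0501) and -0.26 in inflamed hIECs (adjusted p = 0.0799) missed the threshold. A long non-coding gene of GENCODE 44 that is not among the rows used here overlaps 19.956% of its exonic bases.

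SERPINB9 (chromosome 6, 2887270 to 2903309), which shields cells from granzyme B, was at 4.94 and 4.99 FPKM in the normal libraries, 4.79 and 4.79 with PM10, 4.11 and 4.37 in the inflamed libraries and 2.53 and 2.65 in the inflamed libraries with PM10. It was lowest in the group with both treatments. There it fell by 0.69 ± 0.0644 against normal hIECs with PM10 (adjusted p = 6.67e-05) and by 0.54 ± 0.0644 against inflamed hIECs (adjusted p = 0.00256), and the interaction was -0.50 ± 0.0911 (adjusted p = 0.0247). The smaller cytokine value without PM10, -0.19 ± 0.0644 (adjusted p = 0.0402), was lost without any 1 of the 8 libraries (-0.15 to -0.22, adjusted p from 0.0591 to 0.187), and the interaction was lost without any single library of the normal hIECs with PM10, the inflamed hIECs or the inflamed hIECs with PM10 (-0.47 to -0.54, adjusted p from 0.0688 to 0.0929) and under quantile normalization (-0.39, adjusted p = 0.051). With only the groups compared, the cytokine value without PM10 missed the threshold (adjusted p = 0.102). The granzyme genes GZMA, GZMB, GZMH and GZMM were listed at 0 in all libraries.

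SERPINB6 (chromosome 6, 2948159 to 2972165), a broadly expressed inhibitor of cathepsin G and trypsin-like proteases, was the highest clade B member, between 32.7 and 39.96 FPKM in all 8 libraries. It was called in none of the 5 comparisons. Its differences ran from -0.09 with PM10 in normal hIECs to 0.15 with cytokines in the presence of PM10 (adjusted p = 0.0628).

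**Figure D4:**
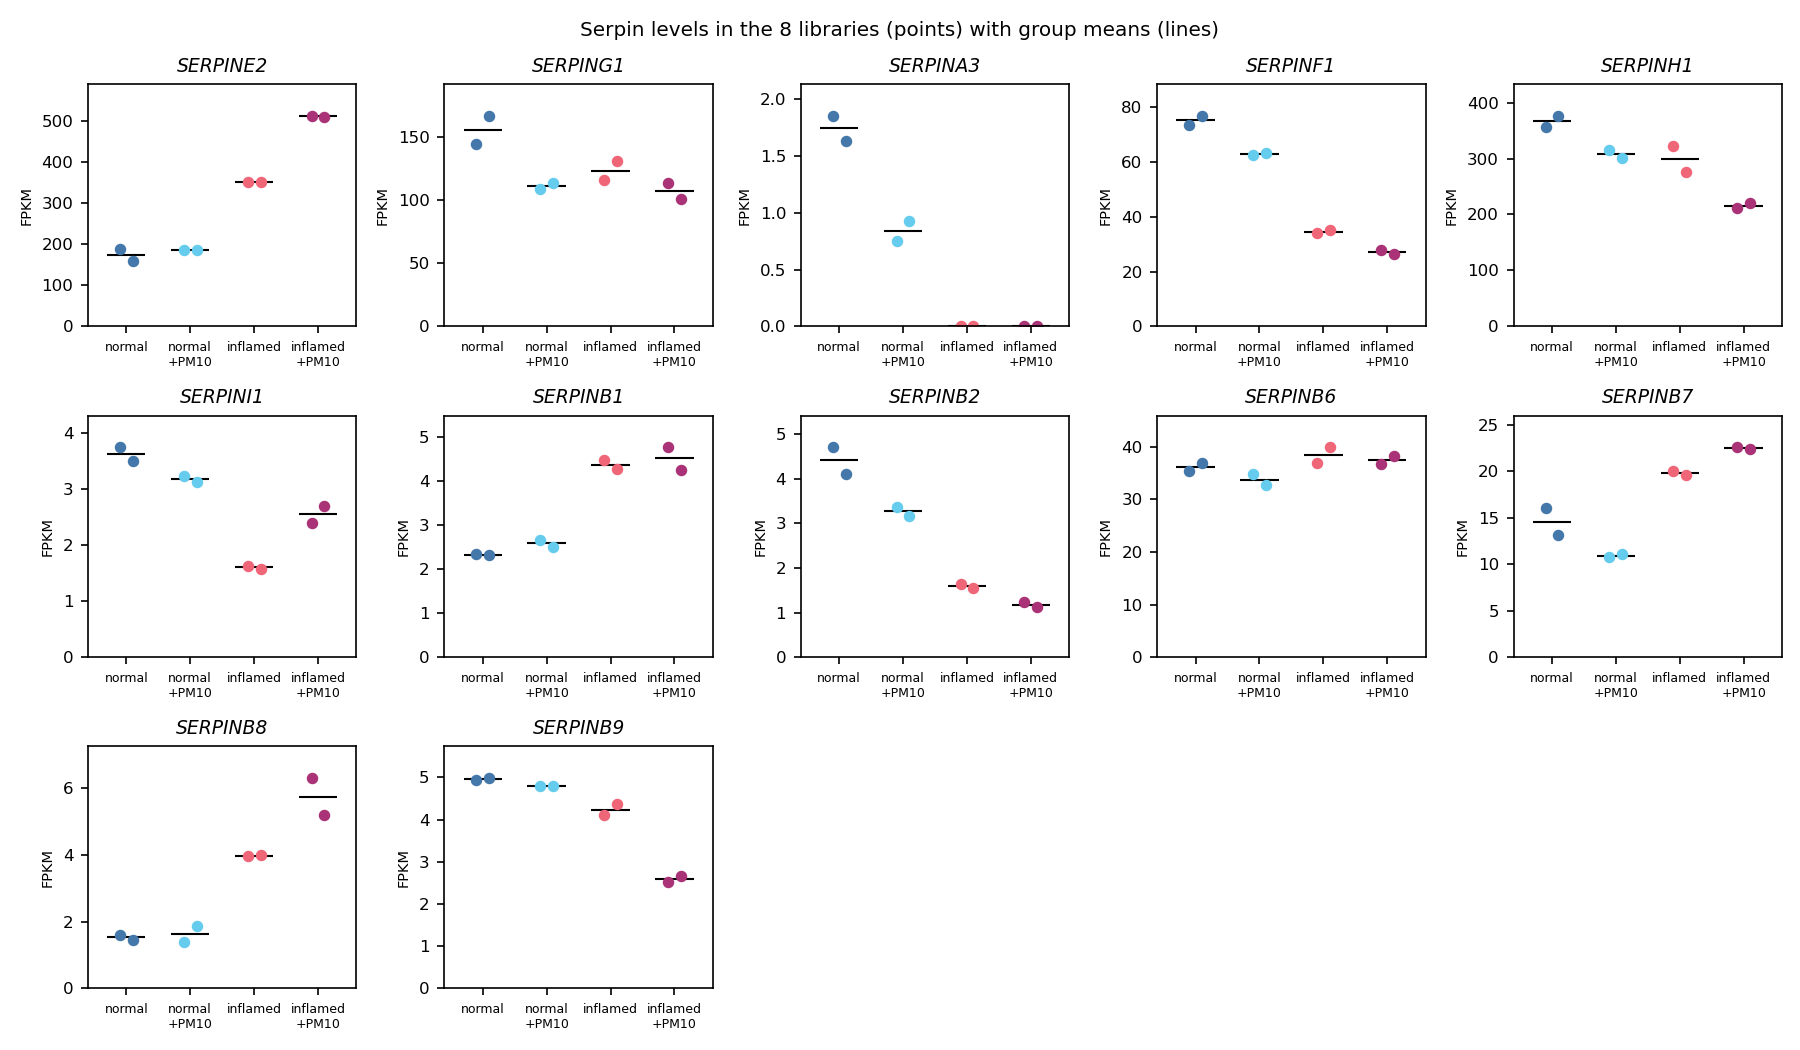
FPKM (vertical axes, each starting at 0) of the 12 tested serpins in the 4 groups, with the 2 libraries of a group as points and the group mean as a line. SERPINB6 is level between 32.7 and 39.96 FPKM, SERPINA3 is at 0 in the libraries with cytokines, and SERPINE2 is highest in inflamed hIECs with PM10.

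SERPINI1 (chromosome 3, 167735243 to 167825569), neuroserpin, is secreted by neurons and inhibits tissue-type plasminogen activator. It was at 3.75 and 3.51 FPKM in the normal libraries, 3.23 and 3.13 with PM10, 1.63 and 1.58 in the inflamed libraries and 2.39 and 2.71 in the inflamed libraries with PM10. The inflamed libraries were the lowest, and those with PM10 in addition lay between them and the libraries without cytokines. The cytokine difference was -0.83 ± 0.0779 without PM10 (adjusted p = 9.37e-05) and -0.24 ± 0.0779 with PM10 (adjusted p = 0.029), PM10 raised it by 0.44 ± 0.0779 in inflamed hIECs (adjusted p = 0.0114), and the interaction was 0.59 ± 0.110 (adjusted p = 0.0268).

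Of 9 neuronal markers, 6 were tested and 5 of these fell in both cytokine comparisons, against 30.3% and 39.6% of all genes, while SYP rose and ELAVL4 was among those listed at 0. DCX, counted among those that fell, reached the minimum only without cytokines, so its fall was built into its selection. The summed level of the 9 markers was 207.5 to 216 FPKM in normal hIECs, 226.5 to 234 with PM10, 123 to 124 in inflamed hIECs and 138 to 141 in inflamed hIECs with PM10, and the part of these markers in the SERPINI1 result was not tested. The SERPINI1 value with cytokines in the presence of PM10 was -0.19 under median centring (adjusted p = 0.0542) and -0.11 under quantile normalization (adjusted p = 0.212), and it was lost without the first (-0.22, adjusted p = 0.113) or the second normal library with PM10 (-0.25, adjusted p = 0.0792) or the first inflamed library with PM10 (-0.17, adjusted p = 0.16). The PM10 value in inflamed hIECs was lost without the first (0.46, adjusted p = 0.061) or the second inflamed library (0.43, adjusted p = 0.0705) or the second inflamed library with PM10 (0.38, adjusted p = 0.0745). The interaction was lost without any single library other than the normal ones (0.53 to 0.66, adjusted p from 0.0567 to 0.0936).

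SERPINF1 (chromosome 17, 1762029 to 1777565), pigment epithelium-derived factor, is a secreted non-inhibitory serpin known for blocking angiogenesis and for its part in bone mineralization. It was at 73.5 and 76.8 FPKM in the normal libraries, 62.4 and 63.2 with PM10, 34.02 and 35.1 in the inflamed libraries and 27.9 and 26.3 in the inflamed libraries with PM10. The 4 groups did not overlap, and each treatment went with a lower level. Cytokines lowered it by 1.10 ± 0.0507 (adjusted p = 2.64e-06) and by 1.18 ± 0.0507 (adjusted p = 1.34e-06), and PM10 by 0.26 ± 0.0507 in normal hIECs (adjusted p = 0.0267) and 0.34 ± 0.0507 in inflamed hIECs (adjusted p = 0.00639). The interaction was -0.09 ± 0.0718 (adjusted p = 0.521). PNPLA2, a receptor for this protein, also fell with cytokines, from 11.6 to 7.13 FPKM without PM10 (-0.63, adjusted p = 0.01). The PM10 value in normal hIECs was lost without the second normal library or without any single library of the other 3 groups (-0.22 to -0.26, adjusted p from 0.0503 to 0.14) and without the variance trend (adjusted p = 0.0532), and that in inflamed hIECs without the second inflamed library (-0.32, adjusted p = 0.054) or the second inflamed library with PM10 (-0.30, adjusted p = 0.052).

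SERPINH1 (chromosome 11, 75562056 to 75572783), the HSP47 chaperone, sits in the endoplasmic reticulum and holds procollagen triple helices until they leave for the Golgi apparatus. It was the highest of the serpins described without cytokines, at 357 and 376 FPKM in the normal libraries, 316 and 302 with PM10, 322 and 275 in the inflamed libraries and 211 and 221 in the inflamed libraries with PM10. The libraries with both treatments lay below all others, and those with a single treatment overlapped. The cytokine difference was -0.30 ± 0.0769 without PM10 (adjusted p = 0.0126) and -0.51 ± 0.0769 with PM10 (adjusted p = 0.000762), and that of PM10 was -0.46 ± 0.0769 in inflamed hIECs (adjusted p = 0.00969) and -0.25 ± 0.0769 in normal hIECs (adjusted p = 0.0863). The value with cytokines alone was -0.17 under quantile normalization (adjusted p = 0.124), -0.26 without the second normal library (adjusted p = 0.0594) and -0.19 without the second inflamed library (adjusted p = 0.0664), and the PM10 value in inflamed hIECs was -0.43 without the first inflamed library with PM10 (adjusted p = 0.0693) and missed the threshold with only the groups compared (adjusted p = 0.052).

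Enzymes and chaperones that act on collagen beside SERPINH1 moved in both directions. Of 29 such genes, 28 were tested, and in each cytokine comparison 12 rose and 8 fell, 20 of 28 called beside 56.2% and 65.4% of all genes, with medians of 0.04 and 0.09 against -0.03 and -0.11 over all genes. PLOD2, which hydroxylates collagen lysines, rose from 21.1 to 53.2 FPKM in inflamed against normal hIECs (1.30), and the cross-linking enzyme LOXL1 rose from 69.8 to 160 FPKM (1.18). The procollagen peptidase ADAMTS2 fell by 1.27 and PCOLCE, the enhancer of the C-terminal procollagen peptidase, by 0.82. Among the mesenchymal markers, 4 rose and 4 fell with cytokines alone, with LUM at 1.31 and PDGFRA at -0.69. With PM10 in inflamed hIECs, 6 of 10 fell, against 9.02% of all genes, and 3 were not called. LUM rose there, by 0.51 (adjusted p = 0.000897), from 97.6 to 140 FPKM. SERPINH1 and SERPINF1 fell in this comparison as well. The part of these markers in the SERPINH1 and SERPINF1 results was not tested.

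Across the wider network around the serpins, proteases moved in both directions with cytokines. Of 51 listed proteases, most of them known serpin targets, 15 were tested and 24 were listed at 0, and 8 rose and 4 fell in each cytokine comparison, beside 25.9% of all genes higher and 30.3% lower without PM10 and 25.8% and 39.6% with PM10. Of those that rose, CTSS, CASP1 and KLK10 reached the minimum only in libraries with cytokines, and FAP, which is not known as a serpin target, was 1 of the 4 that fell. Besides C1S and C1R, the inflammatory caspase CASP1 and the lysosomal protease CTSS rose, each from a listed 0 in the normal libraries, to 9.60 and 12.5 FPKM. The secreted protease HTRA1 fell from 118 to 26.3 FPKM (-2.12). Of 24 receptors and cofactors of serpins, 21 were tested, 10 rose and 8 fell without PM10 and 11 rose and 8 fell with PM10, beside 56.2% and 65.4% of all genes called, with medians of 0.21 and 0.16 against -0.03 and -0.11 over all genes. SORL1, counted as rising with PM10 present, reached the minimum only in libraries with cytokines, so its rise was built into its selection. SDC4, a heparan sulfate proteoglycan, rose by 1.46 in inflamed against normal hIECs, while the glypicans GPC3 and GPC1 fell by 1.78 and 1.11.

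Protease inhibitors outside the serpin family were also divided. Of 46, 20 were tested, 6 rose and 8 fell without PM10, and 7 rose and 7 fell with PM10, 14 of 20 in each comparison beside 56.2% and 65.4% of all genes. WFDC1 and ITIH5, counted among those that fell, reached the minimum only in libraries without cytokines. BIRC3 and ITIH3, counted among those that rose, reached it only in libraries with cytokines. The direction of these calls was built into the selection. TFPI2, a Kunitz-type inhibitor of plasmin and other serine proteases, rose from 5.93 to 35.5 FPKM with cytokines (2.40) and from 5.93 to 16.8 FPKM with PM10 in normal hIECs (1.36, adjusted p = 0.0013), the comparison in which none of the serpins described was called higher. BIRC3, of the inhibitor of apoptosis family, was listed at 0 without cytokines and had means of 3.99 FPKM in inflamed hIECs and 6.09 FPKM in inflamed hIECs with PM10, so that it reached the minimum only with cytokines. TIMP3, an inhibitor of metalloproteases, rose from 16.1 to 51.3 FPKM (1.62). SPINT2, an inhibitor of membrane serine proteases, fell from 13.3 to 2.22 FPKM (-2.15), and A2M, the broad protease trap of plasma, from 194 to 72.6 FPKM (-1.40).

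With PM10, fewer genes of each of these 4 lists were called than with cytokines. In normal hIECs, where 9.23% of all genes were called, 1 of the 15 listed proteases rose (CTSL, 0.32) and 1 fell (HTRA1, -0.67), 2 of 21 receptors and cofactors rose and 3 fell, 3 of 20 other inhibitors rose and 2 fell, and 1 of 28 collagen genes rose and 6 fell. In inflamed hIECs, where 15.2% of all genes were called, 2 proteases rose and 3 fell, 5 receptors and cofactors rose and 4 fell, 3 other inhibitors rose and 3 fell, and 2 collagen genes rose and 5 fell. PLAU rose in inflamed hIECs by 0.71 (adjusted p = 0.0012), the comparison in which SERPINE2 rose too.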

How the data were processed

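RNA-seq of 8 libraries of 2D hIECs was analysed, 2 in each of 4 groups taken from the sample labels. Per the labels, the authors selected poly-A RNA with a kit that does not mark strand. Reads were cleaned with Cutadapt 3.7 and Sickle 1.33 (Phred minimum 20, length minimum 50 bases), mapped to GRCh38 by HISAT2 2.2.1 and quantified by StringTie 2.2.0, with an annotation release that is not given in the sources used here. The deposited values are FPKM, with no further scaling and no read counts, so depth is unknown and no counting interval is given. Of 76 ribosomal protein genes, 2 (RPL10L and RPL3L) were listed at 0.

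The log2(FPKM + 1) scale was used, on which the fold change of a low gene is understated. limma 3.58.1 (R 4.3.3) with a variance trend was fitted to all 8 libraries, 1 mean per group, over 14206 genes (minimum 1 FPKM, in 2 libraries), since the study names no test across genes. Benjamini-Hochberg adjustment was made in each of 5 comparisons separately, with calls at an adjusted p-value under 0.05. An exact permutation test of 2 against 2 libraries cannot go below 0.333. Of the 34 serpins the rule found, 1 is not reported here. The members and gene lists were chosen with earlier results of these data known. Library values are given for members called in any comparison with a difference of at least 0.5 or with a group mean of at least 50 FPKM. From the lists, up to 4 genes per direction with the largest called differences are named. Direct partners of a serpin (PLAU, PLG, F2, PNPLA2, CTSL, granzymes and neutrophil proteases) were added after values were seen, as were FAP, KLK10, FCER1G, DCX, SORL1, WFDC1, ITIH3 and ITIH5. Of 6 endothelial markers, 5 were listed at 0. In simulated data for the cytokine comparison without PM10 (14206 genes), 188 of 200 changed genes were called, and false calls made up 4.57%. The simulation gave all groups the same spread. In the data, 7988 genes were called in that comparison, and the spread was largest in normal hIECs (median SD 0.0854). The simulated figure therefore does not measure the error of the calls reported. Positions came from GENCODE 44, which held 99.51% of the rows and all 33 serpins described, and promoters from RefSeq. Alternatives covered the pseudocount, the filter, scaling, protein-coding genes only, the trend, the groups in the fit, a replicate block and each library left out. For single genes they were read for the serpins alone, so the calls of genes from the lists were not checked in this way. Python 3.11.15, pandas 2.3.3 and matplotlib 3.10.9 were used for tables and plots.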

Additional observations from a re-analysis of the deposited data

Results flagged for a closer look

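The effect of PM10 differed between inflamed and normal hIECs for 3 serpins by the interaction term of limma. On the log2(FPKM + 1) scale the interaction was 0.59 for SERPINI1 (from -0.15 in normal to 0.44 in inflamed hIECs), 0.56 for SERPINB7 (from -0.38 to 0.18) and -0.50 for SERPINB9 (from -0.04 to -0.54). Each of these calls was lost without any single library other than the normal ones. That of SERPINB7 was also lost without the filter on low values, without the variance trend and with the replicate block, and that of SERPINB9 under quantile normalization.

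SERPINB9P1, a long non-coding RNA whose symbol falls outside the rule for the serpins, was above 0 in the inflamed groups alone. It stood at 0.528 and 0.465 FPKM in the inflamed libraries and at 0 and 0.533 FPKM in the inflamed libraries with PM10, and it was listed at 0 in the 4 libraries without cytokines. These values are below the minimum for a test.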

How the results depend on the processing

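Of the values computed for called serpins under the alternatives, 521 stayed past the threshold, 85 did not and none changed sign. Serpins called numbered 8 to 11 (11 as reported) with cytokines alone and 9 to 11 (10 as reported) with cytokines in the presence of PM10, with each library left out giving 8 to 10 and 9 to 10. With PM10 in normal hIECs, limma called 4 serpins as reported and 0 when only the groups compared were fitted (6 at an unadjusted p under 0.05), with 23 genes called in all against 1311, and 0 to 5 with each library left out in turn: 5 without the first and 2 without the second normal library, 0 without either normal library with PM10 (6 and 5 at an unadjusted p under 0.05) and 2 without any single library with cytokines. With PM10 in inflamed hIECs, 6 were called as reported and 3 to 6 with each library left out, 3 without the second inflamed library and 3 without the second inflamed library with PM10. The interaction called 3, 5 under median centring or with protein-coding genes only, 4 under quantile normalization, SERPINB9 not among them, and 0 to 4 with each library left out, 0 without any single library other than the normal ones (5 to 7 at an unadjusted p under 0.05). The fit that leaves out 1 of 2 libraries assumes that the lone library varies like the other groups. The libraries were treated as unpaired, since same-numbered libraries did not deviate together (correlations of -0.0015 to 0.0793). With the replicate block, 11, 10, 4, 5 and 2 serpins were called in the 5 comparisons, and the calls of SERPINB8 with PM10 in inflamed hIECs (adjusted p = 0.0657) and of the SERPINB7 interaction (adjusted p = 0.0502) were lost. The cause of these shifts was not tested. With no read counts, the depth behind a serpin listed at 0 is unknown.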
